A study of Mus musculus with 16 samples.

Results

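The genes examined are 10 writers, readers and erasers of N6-methyladenosine (m6A), the methyl mark that is placed inside many messenger RNAs. They were followed in growing mouse oocytes that lacked both HDAC1 and HDAC2, either enzyme alone, or neither. The members were taken as the probe sets whose platform annotation gives exactly 1 gene symbol, that of a listed gene. This found 9 probe sets for 7 of the 10 genes, among 21218 such probe sets of 18820 genes on the array. Wtap was the 1 writer of 3 that was measured, Ythdc1, Ythdc2, Ythdf1 and Ythdf3 were 4 readers of 5, and Alkbh5 and Fto were both erasers. Mettl3 and Mettl14, the pair that forms the methyltransferase core, are each annotated on a probe set that also names a second gene, Tox4 and Sec24d, and were not analysed here. No probe set used here names Ythdf2.

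Oocytes of 4 genotypes were compared, with 4 arrays for each: the HDAC1/2 double conditional knockout, the HDAC1 conditional knockout, the HDAC2 conditional knockout and wild type. All came from ovaries of mice aged 12 days on the C57BL/6 background, and 80 oocytes went into each RNA sample. The knockouts carried conditional alleles of Hdac1, Hdac2 or both with Zp3-Cre, a recombinase driven by the promoter of a zona pellucida gene that is active in growing oocytes, so the deletion takes place after growth has begun. Whether the wild-type mice carried the transgene or unrecombined conditional alleles is not stated by the labels. The labels call the 4 arrays of a genotype biological replicates. The stated purpose was to find what the 2 enzymes do during oocyte growth.

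As background, m6A is written by a complex of METTL3 and METTL14 that is held in place by WTAP. Proteins with a YTH domain bind the mark: YTHDC1 acts in the nucleus, on splicing and export, while the YTHDF proteins act in the cytoplasm, on decay and translation. YTHDC2 is an RNA helicase that germ cells need to enter and stay in meiotic prophase. FTO and ALKBH5 remove the methyl group by oxidation. Growing oocytes store messenger RNA for later use, and in mice the mark, several of its readers and YTHDC2 are known to be needed for oocyte or germ cell development. HDAC1 and HDAC2 remove acetyl groups from histones.

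Values are the deposited log2 values, on which a difference of 1 is a doubling. Hdac1 itself averaged 7.66 ± 0.10 in double-knockout, 6.61 ± 0.19 in Hdac1-knockout, 9.64 ± 0.11 in Hdac2-knockout and 9.28 ± 0.05 in wild-type oocytes (SD, n = 4 each). The arrays labelled as lacking Hdac1 thus had the low values. Their Hdac1 signal was not alike, being higher by 1.04 in the double knockout than in the Hdac1 knockout (limma, adjusted p = 5.22e-08). The cause of that difference was not tested. Hdac2 stood at 10.87 in double-knockout, 11.13 in Hdac1-knockout, 10.99 in Hdac2-knockout and 11.09 in wild-type oocytes, and since the part of the gene its probe set reads is not given, this does not check the Hdac2 label. All 12 oocyte markers measured lay above the median of the tested probe sets (5.27) in every genotype, and their mean ran from 11.42 to 11.43 over the double-knockout arrays and from 11.47 to 11.50 over the wild-type arrays. Of these 12, by their brightest probe sets, 2 fell and 0 rose in the double knockout. Of all tested probe sets 19.8% were lower and 18.5% higher. The 2 were the oocyte transcription factor Figla, which fell by 0.56, and the germ cell helicase Ddx4, which fell by 0.32. Of 9 granulosa markers 7 lay below that median in the double knockout and 8 in wild type, as did 11 of 12 theca and stroma markers and 7 of 9 blood, immune and endothelial markers in both. The mean of the granulosa list was 4.85 to 5.0 over the double-knockout arrays and 4.89 to 5.04 over the wild-type arrays, that of theca and stroma 4.33 to 4.46 and 4.30 to 4.39, and that of blood, immune and endothelial cells 4.14 to 4.28 and 4.30 to 4.40. Of these 30 markers of other cells, 4 rose and 4 fell in the double knockout, beside 18.5% higher and 19.8% lower of all tested probe sets. The granulosa list had 1 that rose (Inha, by 0.59) and 2 that fell (Kitl and Nr5a2, differences of -0.37 and -1.07), theca and stroma 2 that rose (Hsd3b1 by 0.51 and Acta2 by 0.31) and 1 that fell (Ptch1, -0.68), and blood, immune and endothelial cells 1 that rose (Cd68, by 0.38) and 1 that fell (Pecam1, -1.37). In wild type Nr5a2, Ptch1 and Pecam1 were the brightest of their lists, with means of 9.82, 7.69 and 8.42. Which cells their signal comes from was not tested. The part of any of these marker changes in the results below was not tested either. With pooled oocytes, fewer oocytes with a transcript and less of it per oocyte cannot be told apart.

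In the double knockout 4 of the 7 measured genes fell against wild type, 0 rose and 3 did not pass the test (limma, adjusted p under 0.05 over all tested probe sets). The 4 were the readers Ythdc2, Ythdc1 and Ythdf3 and the eraser Fto. Over the whole array 38.3% of tested probe sets were called in this comparison, 19.8% lower and 18.5% higher. The median change of the 7 genes was -0.24, beside -0.01 over all tested probe sets, and the changes ran from -0.91 to 0.03. Neither single knockout had a call among the 7.

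**Figure D1:**
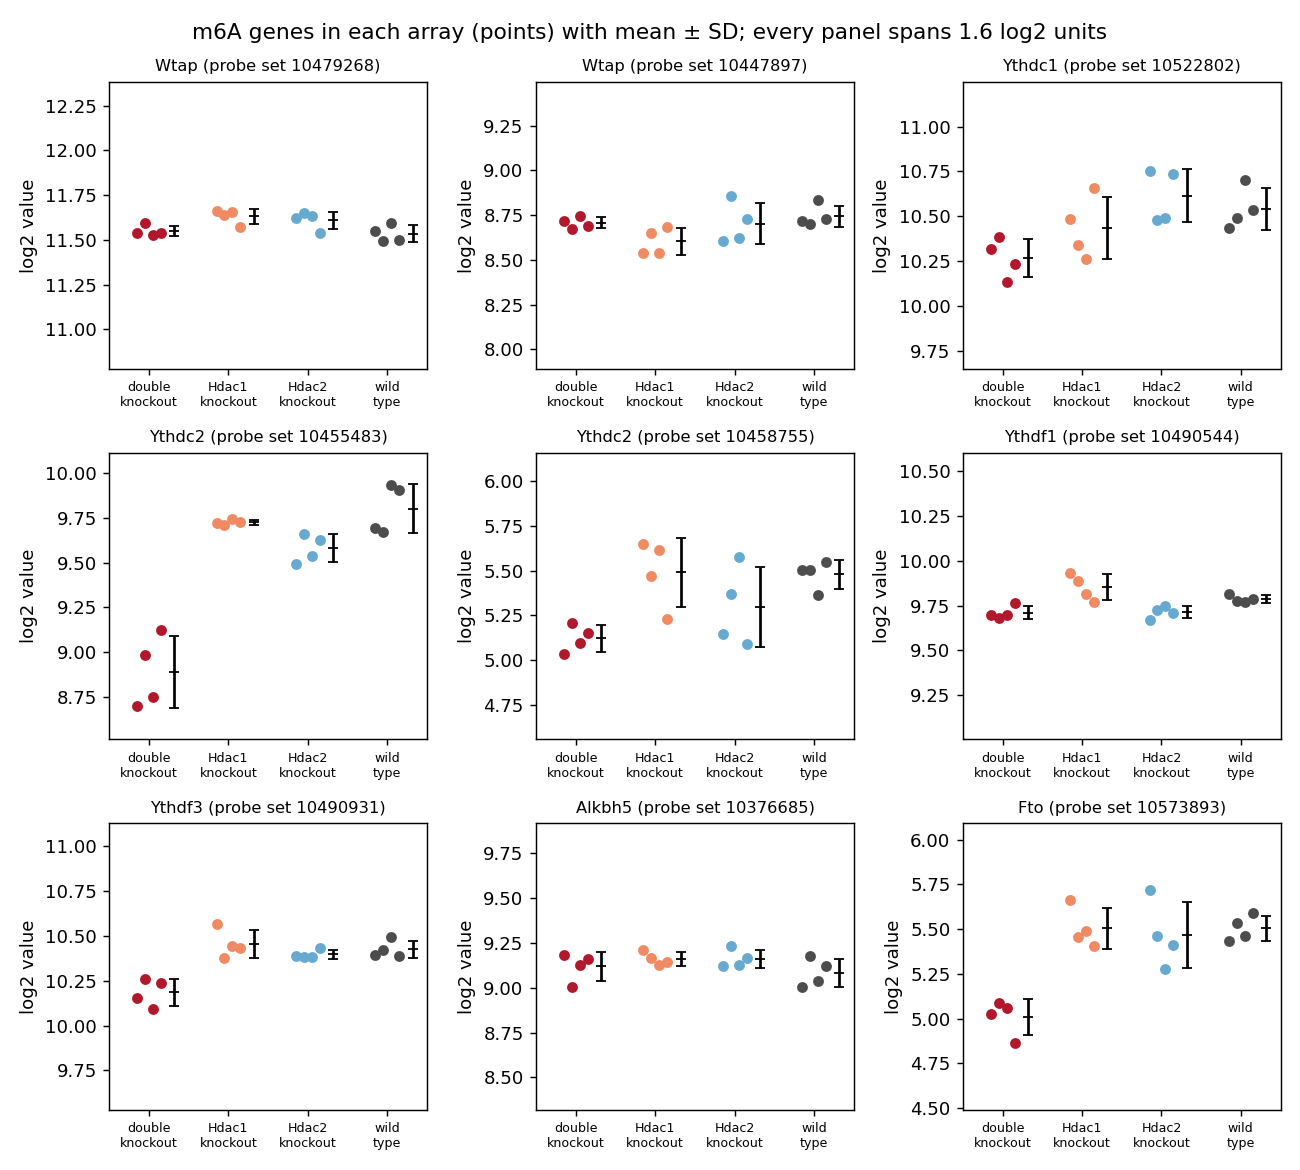
Deposited log2 values of the 9 probe sets of 7 m6A genes, with 1 point for each array and the mean ± SD of each genotype (n = 4) beside its points; every panel spans the same number of log2 units. In the double knockout the brighter Ythdc2 probe set (8.70 to 9.12) and Fto (4.86 to 5.09) lie below every array of the other genotypes.

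Wtap encodes the adaptor that brings the methyltransferase core to its sites in the nucleus. Its brighter probe set (10479268) had 11.54, 11.59, 11.53 and 11.54 in double-knockout oocytes, 11.66, 11.64, 11.66 and 11.57 in Hdac1-knockout, 11.62, 11.65, 11.63 and 11.54 in Hdac2-knockout and 11.55, 11.49, 11.60 and 11.50 in wild-type oocytes. The 4 genotypes overlapped, and the double knockout differed from wild type by 0.02 ± 0.05 (SE; adjusted p = 0.841). The 95% interval of that difference ran from -0.08 to 0.11. The other probe set (10447897) averaged 8.71 ± 0.03 in double-knockout oocytes, 8.60 ± 0.08 in Hdac1-knockout, 8.70 ± 0.12 in Hdac2-knockout and 8.74 ± 0.06 in wild-type oocytes (SD, n = 4). All 4 of its Hdac1-knockout arrays (8.54 to 8.69) lay below all 4 wild-type arrays (8.70 to 8.83), a difference of -0.14 that did not pass (adjusted p = 0.521), whereas the brighter probe set differed by 0.10 the other way (adjusted p = 0.576). Which of them reads the gene itself is uncertain. Probe set numbers mostly run along chromosomes, with 90.6% of neighbouring numbers on the same one by the RefSeq gene table. Wtap lies on chromosome 17, and so do 19 of the 20 nearest neighbours of the dimmer probe set, but all 20 nearest neighbours of the brighter one lie on chromosome 2. The other 7 probe sets each had at least 18 of 20 neighbours on the chromosome of their own gene.

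Ythdc2 had the largest change of the 7 genes. It codes for a helicase with a YTH domain, which in mouse germ cells acts with the protein MEIOC to lower transcripts of the mitotic programme. Its brighter probe set (10455483) had 8.70, 8.98, 8.75 and 9.12 in the double knockout, against 9.69, 9.67, 9.93 and 9.90 in wild type. The Hdac1 knockout had 9.72, 9.71, 9.74 and 9.73, and the Hdac2 knockout 9.49, 9.66, 9.54 and 9.63. All 4 double-knockout arrays lay below the 12 others. The fall was 0.91 ± 0.09 (SE) on the log2 scale, which left 53.1% of the wild-type signal (adjusted p = 3.88e-07). In order, the double knockout was lowest, then came the Hdac2 knockout, the Hdac1 knockout and wild type. The Hdac2-knockout arrays lay below every wild-type array, but that difference of -0.22 did not pass (adjusted p = 0.173), nor did the -0.08 of the Hdac1 knockout (adjusted p = 0.86). The dimmer probe set of the gene (10458755) fell by 0.36 ± 0.10 in the double knockout (adjusted p = 0.0106), to 5.12 ± 0.07 there, against 5.48 ± 0.08 in wild type (SD, n = 4), close to the median of the tested probe sets. In that second probe set the double knockout and the Hdac2 knockout overlapped and differed by -0.17 (adjusted p = 0.224).

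Ythdc1, the nuclear reader, fell by less. Its values were 10.32, 10.38, 10.13 and 10.23 in double-knockout oocytes, 10.49, 10.34, 10.26 and 10.66 in Hdac1-knockout, 10.75, 10.48, 10.49 and 10.73 in Hdac2-knockout and 10.43, 10.49, 10.70 and 10.53 in wild-type oocytes. The double-knockout arrays lay below all wild-type and all Hdac2-knockout arrays and overlapped those of the Hdac1 knockout. Against wild type the fall was 0.27 ± 0.09 (SE; adjusted p = 0.0286), with 82.8% of the signal left. This call depended on single arrays: it was lost without wild-type replicate 3 (adjusted p = 0.0984) or 4 (0.0523) and without double-knockout replicate 3 (0.0902) or 4 (0.062).

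The cytoplasmic readers Ythdf1 and Ythdf3 are close relatives that bind m6A through the same kind of domain. Ythdf3 had 10.15, 10.26, 10.09 and 10.23 in double-knockout oocytes, 10.56, 10.37, 10.44 and 10.44 in Hdac1-knockout, 10.39, 10.38, 10.38 and 10.43 in Hdac2-knockout and 10.40, 10.42, 10.49 and 10.39 in wild-type oocytes. All double-knockout arrays were below all others, and the 3 other genotypes overlapped. The fall against wild type was 0.24 ± 0.05 (SE), leaving 84.7% of the signal (adjusted p = 0.00171). Ythdf1 had 9.70, 9.68, 9.70 and 9.76 in the double knockout, against 9.82, 9.77, 9.77 and 9.79 in wild type. These arrays did not overlap, but the difference of -0.07 ± 0.05 (SE) did not pass (adjusted p = 0.248; 95% interval -0.17 to 0.03). With each array centred on its median it was -0.16 and passed (adjusted p = 0.0174). The Hdac1 knockout had the highest Ythdf1 mean, 9.85 ± 0.07, and the Hdac2 knockout had 9.71 ± 0.03 (SD, n = 4), which is within 0.01 of the double knockout.

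The 2 erasers differed in what they did. Fto, first known for its link to body weight, had 5.02, 5.09, 5.06 and 4.86 in double-knockout oocytes, 5.66, 5.46, 5.49 and 5.41 in Hdac1-knockout, 5.72, 5.46, 5.28 and 5.41 in Hdac2-knockout and 5.43, 5.53, 5.46 and 5.59 in wild-type oocytes. The double-knockout arrays lay below all others, and the 3 other genotypes overlapped with means of 5.50, 5.47 and 5.51. The fall against wild type was 0.50 ± 0.09 (SE), which left 70.9% of the signal (adjusted p = 0.000175). Fto is a dim probe set, near the median of those tested, where a fold change can be understated. Alkbh5, needed for male germ cell development in the mouse, had 9.18, 9.0, 9.13 and 9.16 in double-knockout oocytes, 9.21, 9.17, 9.13 and 9.14 in Hdac1-knockout, 9.12, 9.23, 9.13 and 9.16 in Hdac2-knockout and 9.01, 9.18, 9.04 and 9.12 in wild-type oocytes. Its 4 genotypes overlapped, and the double knockout differed from wild type by 0.03 ± 0.06 (SE; adjusted p = 0.681; 95% interval -0.08 to 0.15).

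The sequences upstream of the 2 erasers are shown because one gene fell and the other did not pass. They are RefSeq sequences of build GRCm38.p6, plus strand, 5′ to 3′, ending at the base before the earliest start that the RefSeq gene table gives, with each CG dinucleotide in capitals. The Fto stretch is chr8:91313275-91313366 and the Alkbh5 stretch is chr11:60537433-60537682.
Fto: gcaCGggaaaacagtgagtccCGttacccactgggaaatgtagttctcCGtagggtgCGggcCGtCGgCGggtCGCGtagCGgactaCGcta
Alkbh5: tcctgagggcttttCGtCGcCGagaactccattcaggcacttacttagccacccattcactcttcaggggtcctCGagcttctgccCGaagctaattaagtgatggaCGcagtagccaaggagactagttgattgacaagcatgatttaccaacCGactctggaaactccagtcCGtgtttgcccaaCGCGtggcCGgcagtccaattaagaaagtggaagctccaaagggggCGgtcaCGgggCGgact
The Fto stretch holds 11 CG in 92 bases and the Alkbh5 stretch 14 in 250.

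Counted over the 250 bases before the start given in the RefSeq promoter table, which had entries for 5 of the 7 genes (Wtap, Ythdc1, Ythdf1, Alkbh5 and Fto), Fto had 18 CG and Alkbh5 14. Of 32851 windows of that length, 21.7% had at least 18 and 29.4% at least 14, and the median window had 6. The Fto window starts with the 92 bases shown above, which hold 11 of its 18 CG. The rest of it lies past the earliest start of the gene table. The Alkbh5 window is the 250 bases shown, so the 2 counts cover unlike stretches. Ythdc1 and Ythdf1 each had 30 CG, a count reached by 5.94% of windows. The 3 windows of Wtap had 29, 41 and 29, the highest of these reached by 1.09%. Of 4 further motifs searched on both strands, GGGCGG, whose letters include a CG, was found 2 times in Alkbh5, 4 times in Ythdc1, 3 times in Ythdf1, 2, 3 and 2 times in the windows of Wtap and 0 times in Fto, and 32.7% of windows held at least 1. CCAAT was found 1 time in Alkbh5, in Ythdf1 and in 2 of the 3 Wtap windows and 0 times in Fto and Ythdc1 (33.8% of windows hold it), CACGTG, which also includes a CG, 1 time in Ythdf1 alone among the 5 genes (6.02%), and TATAAA in none of the 5 (12.4%). These counts describe the letters of the windows alone.

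Against wild type, the single knockouts had 0 of 7 calls each, by limma. In the Hdac1 knockout 0.0707% of tested probe sets were called (0.0189% higher and 0.0518% lower), 0 of the 7 genes had an unadjusted p under 0.05, and the changes ran from -0.11 to 0.10. In the Hdac2 knockout 5.59% were called over the array (2.86% higher and 2.74% lower), 1 of the 7 genes, Ythdc2, had an unadjusted p under 0.05, and the changes ran from -0.22 to 0.08. The widest 95% interval among these 14 differences, that of Ythdc1, reached 0.20 to either side. In the Hdac1 knockout it ran from -0.30 to 0.09, which takes in the Ythdc1 change of the double knockout (-0.27). The intervals of Ythdf3, from -0.08 to 0.14 in the Hdac1 and from -0.14 to 0.09 in the Hdac2 knockout, stopped short of its -0.24. An interval that leaves out 0 need not pass after adjustment, as for Ythdc2 in the Hdac2 knockout (-0.41 to -0.04). The single-knockout comparisons and that of the double knockout share the 4 wild-type arrays.

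**Figure D2:**
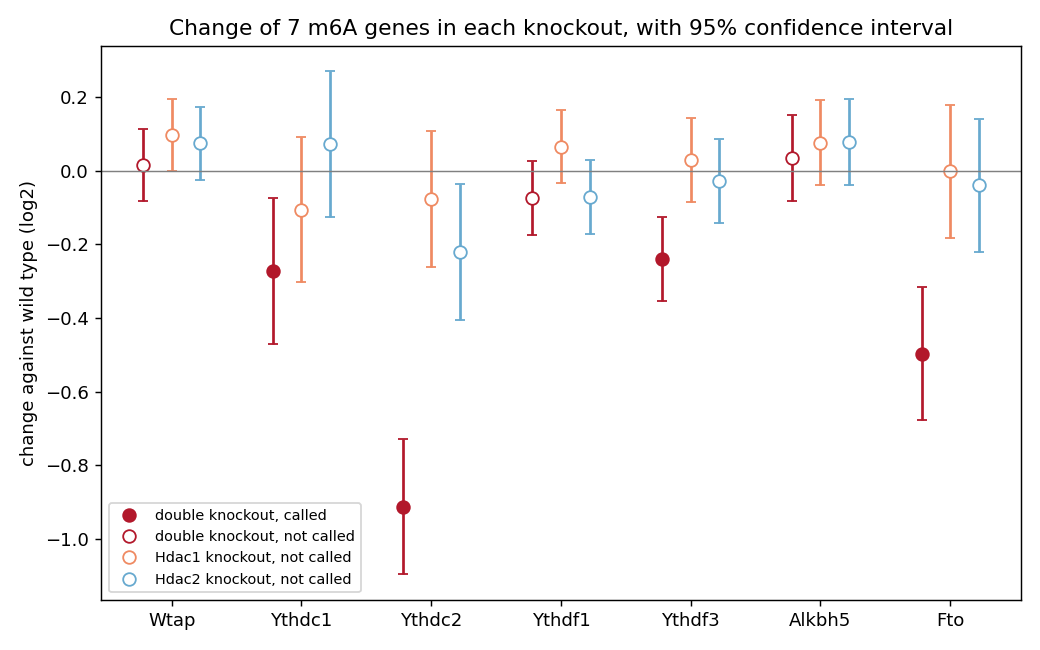
Change of the 7 m6A genes against wild type on the log2 scale in the double, Hdac1 and Hdac2 knockouts, with the 95% confidence interval of the limma fit; filled points passed the test. Ythdc2 (-0.91), Fto (-0.50), Ythdc1 (-0.27) and Ythdf3 (-0.24) passed in the double knockout, and 0 of 7 passed in either single knockout.

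Set against the Hdac1 knockout, the double knockout had lower values of 4 genes and higher values of 0, with 38.7% of all tested probe sets called (20.1% lower). Ythdc2 was lower by 0.84 (adjusted p = 9.8e-07), Fto by 0.50 (0.000175), Ythdf3 by 0.27 (0.000653) and Ythdf1 by 0.14 (0.0261). Ythdc1 differed by -0.17 and did not pass (adjusted p = 0.178). With each array centred on its median, Ythdc1 differed by -0.26 and passed (limma, adjusted p = 0.0371). In that setting 6 of the 7 genes were called lower, with Wtap taken by its brighter probe set. Centring also raised the number lower among all 21218 tested probe sets, to 6907 in place of 4256. The Ythdf1 call was lost in 5 of 8 fits that leave out 1 array, those without Hdac1-knockout replicate 1 or 2 or double-knockout replicate 1, 2 or 3 (adjusted p up to 0.0821), and also with quantile normalization (0.0522) and with only the groups compared in the fit (0.0958). Set against the Hdac2 knockout, the double knockout was lower in 4 genes and higher in 0, with 33.7% called over the array (16.9% lower). They were Ythdc2 by 0.69 (adjusted p = 1.25e-05), Fto by 0.46 (0.000491), Ythdc1 by 0.35 (0.00821) and Ythdf3 by 0.21 (0.00539). The Hdac1 knockout against the Hdac2 knockout had 0 of 7 calls, with 5.78% called over the array (2.81% higher and 2.96% lower) and 1 gene, Ythdf1, at an unadjusted p under 0.05. Wtap and Alkbh5 had no call in any of these comparisons, but with each array centred on its median the brighter Wtap probe set was lower in the double knockout than in the Hdac1 knockout by 0.18 (adjusted p = 0.00745) and than in the Hdac2 knockout by 0.14 (0.0311). The dimmer Wtap probe set was higher than in the Hdac1 knockout by 0.10, which did not pass (adjusted p = 0.201). Over the alternatives that difference ran from 0.0067 to 0.13. Against the Hdac2 knockout the dimmer one differed by 0.005 (adjusted p = 0.964).

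The interaction asks how far the log2 change of the double knockout departs from what the Hdac1-knockout and Hdac2-knockout changes add up to. For Ythdc2 the double-knockout change was -0.91 and the single changes summed to -0.30, a departure of -0.62 ± 0.12 (SE; adjusted p = 0.00164). Fto changed by -0.50 beside a sum of -0.04, a departure of -0.46 ± 0.12 (adjusted p = 0.0112), and Ythdf3 by -0.24 beside a sum within 0.01 of 0, a departure of -0.24 ± 0.08 (adjusted p = 0.0296). Ythdc1 departed by -0.24 ± 0.13, which did not pass (adjusted p = 0.217). Over the array 23.3% of tested probe sets had a called interaction, a negative one in 11.6% and a positive one in 11.7% of those tested, and among the 7 genes 3 did, all 3 negative. The Ythdf3 call was lost in 6 of 16 fits without 1 array, namely wild-type replicate 1 or 4, Hdac1-knockout replicate 1, Hdac2-knockout replicate 4 or double-knockout replicate 1 or 3 (adjusted p up to 0.0624). In the dimmer Ythdc2 probe set the departure was -0.18 and did not pass (adjusted p = 0.417). The brighter Wtap probe set departed by -0.16 (adjusted p = 0.0999) and passed with other settings, such as quantile normalization (-0.21, adjusted p = 0.0222). The dimmer Wtap probe set departed the other way, by 0.15, and did not pass (adjusted p = 0.259).

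**Figure D3:**
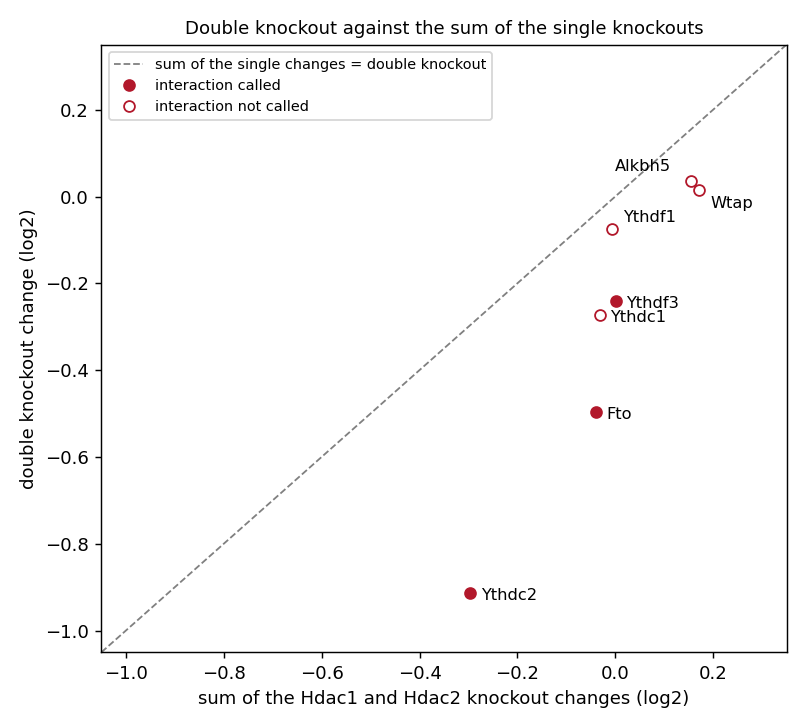
Double-knockout change of each m6A gene (vertical axis, log2) against the sum of its Hdac1-knockout and Hdac2-knockout changes (horizontal axis, log2); on the dashed line both are equal, and filled points had a called interaction. Ythdc2, Fto and Ythdf3 lie below the line by 0.62, 0.46 and 0.24. The 7 points all lie below it, 3 with a called interaction and 4 without. Wtap is plotted by its brighter probe set, and which of its probe sets reads the gene is uncertain. The dimmer Wtap probe set, not plotted, departed by 0.15, which is above the line. The median departure over all tested probe sets was -0.005.

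The partners of YTHDC2 moved apart from each other. Meioc, whose product binds YTHDC2 in mouse germ cells, had 7.58, 7.05, 7.57 and 7.36 in the double knockout, against 3.66, 3.88, 3.77 and 3.60 in wild type, a rise of 3.66 ± 0.11 (SE; adjusted p = 2.95e-13). Its wild-type signal is below the median of the tested probe sets, so that no fold is given. The Hdac1 and Hdac2 knockouts averaged 4.05 ± 0.17 and 4.06 ± 0.08 (SD, n = 4), and neither difference from wild type passed. Xrn1, the exonuclease that YTHDC2 also binds, had 8.29, 8.45, 8.20 and 8.27 in the double knockout, against 8.50, 8.52, 8.77 and 8.67 in wild type, a fall of 0.31 ± 0.08 (SE; adjusted p = 0.00385). Ythdc2 and Xrn1 were thus lower and Meioc higher in the same 4 arrays. Rbm46, the third partner listed, was not analysed here.

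**Figure D4:**
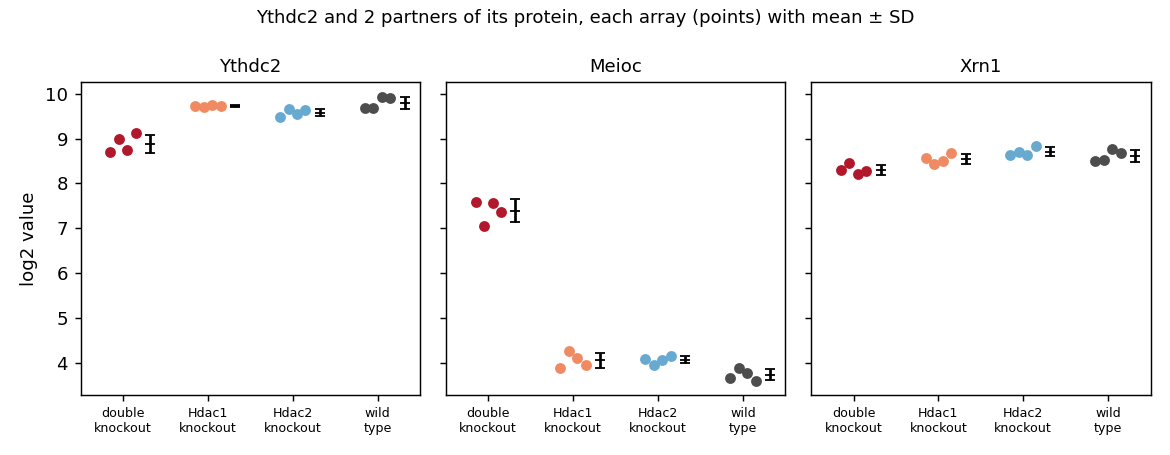
Log2 values of Ythdc2 (probe set 10455483) and of Meioc and Xrn1, whose products bind its protein, with 1 point for each array and mean ± SD (n = 4). In the double knockout Meioc lies at 7.05 to 7.58, far above the 3.60 to 3.88 of wild type, while Ythdc2 and Xrn1 lie below their wild-type arrays.

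Of 50 genes listed around the pathway in 7 lists, 44 were measured, and in the double knockout 5 rose, 12 fell and 27 did not pass, beside 18.5% higher and 19.8% lower over the array. Their median change was 0.02. Among 5 cofactors of the writer complex, Cbll1, which codes for the E3 ligase-like protein Hakai, fell by 0.26 ± 0.06 (SE; adjusted p = 0.00389), and Virma, Zc3h13, Rbm15 and Rbm15b did not pass. Together with Wtap, and by their brightest probe sets, 1 of 6 measured parts of the complex outside its core was called. Over the array 38.3% of tested probe sets were called. Which Wtap probe set reads the gene is uncertain, and neither was called. Another probe set of Virma was higher by 0.18 (limma, adjusted p = 0.043). Of 4 other N6-adenosine methyltransferases or their partners, Trmt112, which stabilises the enzymes that methylate ribosomal RNA, rose by 0.18 (adjusted p = 0.0261), Pcif1, which methylates the adenosine next to the cap, fell by 0.20 (0.0397), and 2 did not pass. The Pcif1 call was lost in 7 of 8 fits without 1 array, all but that without double-knockout replicate 1 (adjusted p up to 0.106). It was also lost with an intensity trend and robust spread (0.0794), with the replicate block (0.0663) and with all probe sets tested (0.0581). The Trmt112 call was lost in 3 of 8 such fits, without double-knockout replicate 4 or wild-type replicate 3 or 4 (adjusted p up to 0.0976). With centring its difference was 0.095 (adjusted p = 0.214), and the call was also lost with quantile normalization (0.0668) and with only the groups compared in the fit (0.0631).

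Among 8 other proteins proposed to bind m6A or sites it opens, Rbmx rose by 1.67 ± 0.12 (SE; adjusted p = 1.4e-08), Hnrnpa2b1 fell by 0.16 (0.0397) and 6 did not pass. Rbmx, a nuclear RNA-binding protein gene with many copies in the genome, had a mean of 5.91 ± 0.28 in double-knockout oocytes, 4.23 ± 0.14 in Hdac1-knockout, 4.80 ± 0.17 in Hdac2-knockout and 4.24 ± 0.07 in wild-type oocytes (SD, n = 4), and copies that share its sequence may add to its signal. Its wild-type signal lies below the median of the tested probe sets, at the level of the dim markers of other cells, so that no fold is given. The Hnrnpa2b1 call was lost in 5 of 8 fits without 1 array, namely double-knockout replicate 2 or 4 or wild-type replicate 1, 3 or 4 (adjusted p up to 0.137). It was also lost with quantile normalization (0.0692), with only the groups compared in the fit (0.0701), with the replicate block (0.0591) and with all probe sets tested (0.0548). Of 6 other AlkB homologues, the family to which ALKBH5 belongs, Alkbh3, a demethylase of other alkylated bases, fell by 0.50 ± 0.09 (SE; adjusted p = 0.000175), Alkbh4 rose by 0.36 ± 0.08 (0.00146) and 4 did not pass.

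The methyl donor of these reactions is S-adenosylmethionine. Of 5 measured genes of its supply, Ahcy, which clears the by-product of methylation, rose 1.45-fold to 8.88 ± 0.09 in the double knockout, against 8.34 ± 0.10 in wild type (SD, n = 4; adjusted p = 2.77e-06). Its other 2 probe sets rose by 0.54 and 0.53, and near copies of a gene can share probes. Mat1a, the donor-making enzyme known from liver, fell by 0.47 ± 0.10 (SE; adjusted p = 0.00178), and Mat2b, the regulatory subunit of the more widely used enzyme, by 0.19 ± 0.05 (0.00481). Ahcyl1 and Ahcyl2 did not pass, and Mat2a was not analysed here.

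Of 14 measured methyltransferases for other RNA sites, 5 fell, 0 rose and 9 did not pass in the double knockout, beside 38.3% called and 19.8% lower over the array. The 5 were Cmtr2, which methylates the second nucleotide after the cap (-0.88 ± 0.13 SE), Nsun3, which acts on mitochondrial tRNA (-0.84 ± 0.13), Nsun6 (-0.62 ± 0.10) and Trdmt1 (-0.60 ± 0.11), which methylate cytosines in tRNA, and the cap methyltransferase Rnmt (-0.19 ± 0.07). Their adjusted p ran from 3.09e-05 to 0.0374, and the call of Rnmt was lost without double-knockout replicate 3 or 4 or wild-type replicate 2 or 3 (adjusted p up to 0.109), with quantile normalization (0.0609) and with all probe sets tested (0.0545).

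**Figure D5:**
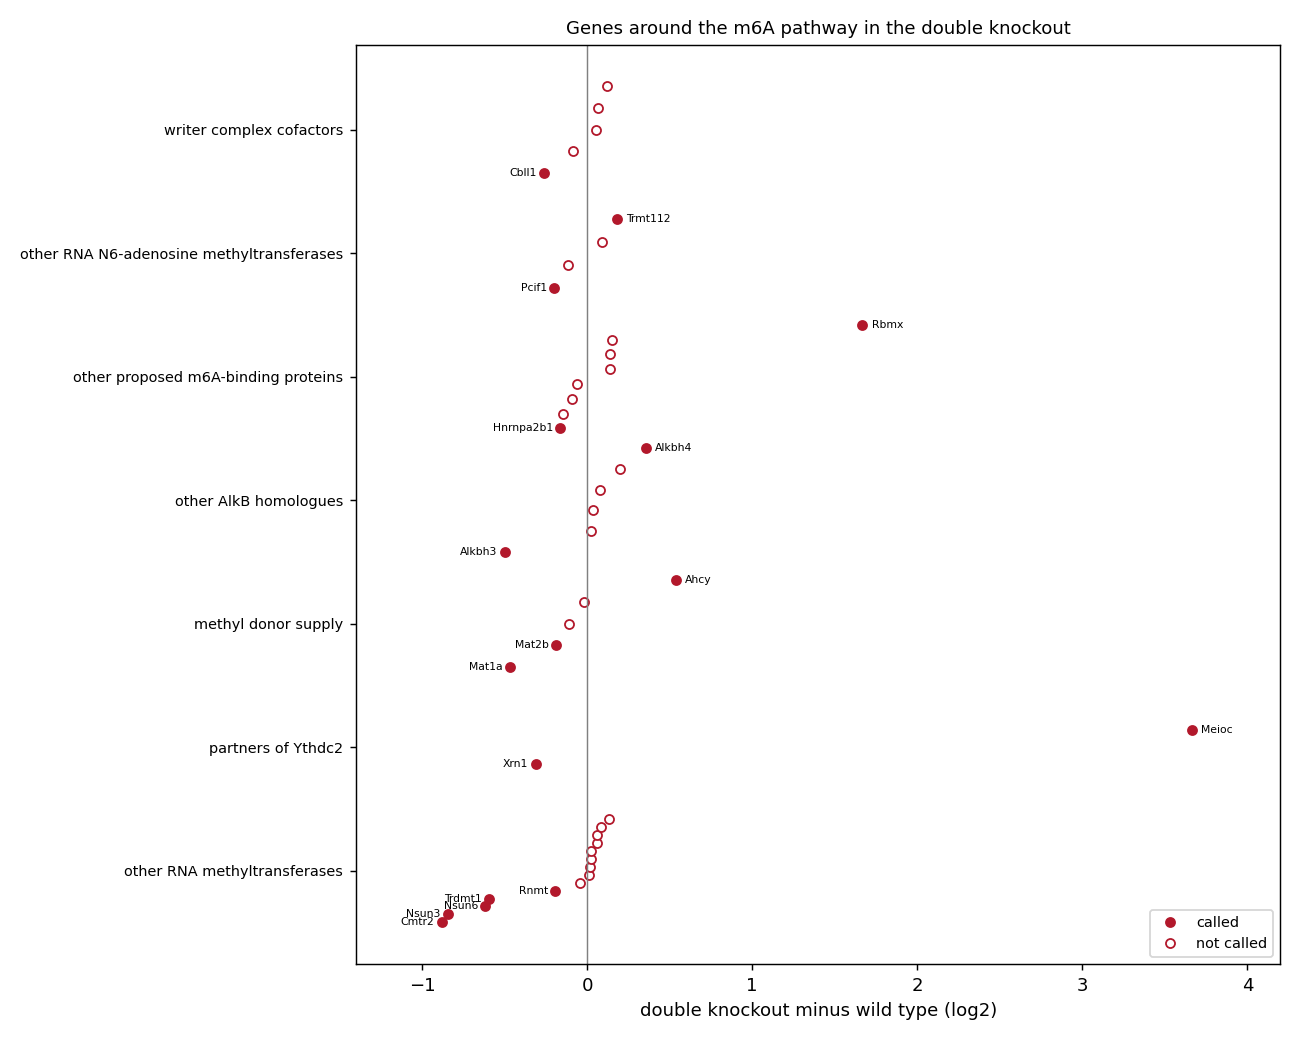
Double knockout minus wild type (log2) for the 44 measured genes of 7 lists around the m6A pathway, 1 row of points for each list; filled and named points passed the test. Meioc (3.66) and Rbmx (1.67) lie far to the right, and the 5 called genes among the other RNA methyltransferases lie left of 0.

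In the Hdac1 knockout 0 of these 44 genes were called, beside 0.0707% of tested probe sets. In oocytes without Hdac2, 3 rose and 1 fell, beside 2.86% higher and 2.74% lower over the array: Rbmx rose by 0.56 (adjusted p = 0.011), Ahcy by 0.31 (0.0072) and the reader Prrc2a by 0.25 (0.0233), and Nsun3 fell by 0.64 (0.00802). Prrc2a differed by 0.14 in the double knockout, which did not pass (adjusted p = 0.0804).

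For Ythdc2 and Fto, the 2 members with the strongest statistical support in the double knockout, the genes with the most similar values over the 16 arrays were sought among brighter tested probe sets. For Ythdc2 they were Cep44, a centrosomal protein gene (Pearson r = 0.987), Plk4, the kinase of centriole duplication (0.983), and Paip2, a partner of poly(A)-binding protein (0.981). Their double-knockout changes were -1.35, -0.35 and -0.34. For Fto they were Icosl, an immune co-stimulatory ligand (0.938), Rpf1, a ribosome assembly factor (0.936), and Lama2, a laminin chain (0.935), with changes of -0.41, -0.47 and -0.44. The 16 points come from 4 genotypes and share the same arrays, and the correlations are given as a description.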

How the data were processed

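RNA of 16 oocyte pools was read on Affymetrix Mouse 1.1 ST arrays. The values are log2 values as deposited by the authors, 1 for each of 35556 probe sets and array, with 0 missing; base 2 is inferred from their range of 2.07 to 12.89, not stated. The submitters' processing notes name MAS5, and the series' design text adds GeneSpring, SAM and EASE; which of them made these values is not stated. Array quartiles lay within 0.103 of the median over arrays, under the limit of 0.2, so the values were used unchanged. Probe sets with exactly 1 symbol in the platform annotation (21218) were tested; 1881 had several symbols and 12457 none.

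A mean for each genotype was fitted to all 16 arrays with limma 3.58.1 in R 4.3.3 (lmFit, contrasts, eBayes; 12 residual degrees of freedom), two-sided, with Benjamini-Hochberg adjustment over all tested probe sets, and a call at adjusted p under 0.05. SEs and 95% intervals are limma's, SDs are over 4 arrays, and the number of arrays limits the precision. A gene with several probe sets is represented by its brightest. The fit was tested on simulated data. No 2 arrays were identical. Named are the 10 members, the list genes called in the double knockout, Hdac1, Hdac2 and, for 2 members, the 3 most similar genes above the median level without provisional symbols; the called markers, Prrc2a and the uncalled list genes were named after their values were seen. The members and lists were chosen with earlier results of these data known. Alternatives were 2 other scalings, a filter on dim probe sets, other estimates of the spread, a replicate block, other sets of probe sets, a limit of 1.4-fold and leaving out each array in turn.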

Additional observations from a re-analysis of the deposited data

Results flagged for a closer look

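The Ythdf3 value of 10.43 in Hdac2-knockout replicate 4 stood apart from the other 3 arrays of its group, the nearest of which was at 10.39. It was the 1 such array among 36 groups of 4 examined (9 probe sets in 4 genotypes), and chance alone sets an array apart in about 1 of 20 such groups. The group's 4 values span a narrow range, from 10.38 to 10.43.

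The effect of losing one deacetylase differed with the presence of the other for 3 genes, by the interaction term of the limma fit. It was -0.62 for the brighter Ythdc2 probe set (adjusted p = 0.00164), -0.46 for Fto (adjusted p = 0.0112) and -0.24 for Ythdf3 (adjusted p = 0.0296). Over the array 23.3% of tested probe sets had a called interaction. In the dimmer Ythdc2 probe set it was -0.18 and did not pass (adjusted p = 0.417). The Ythdf3 call was lost in 6 of 16 fits without 1 array.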

How the results depend on the processing

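The falls of Ythdc2 (brighter probe set), Fto and Ythdf3 in the double knockout against wild type kept their direction under every alternative. Their ranges were -1.0 to -0.64, -0.59 to -0.45 and -0.33 to -0.21. All 3 also kept their call, except that Ythdf3 did not reach the limit of 1.4-fold. At 1.4-fold or more, 2 members in place of 4 were lower in the double knockout than in wild type, 2 in place of 4 than in the Hdac1 knockout, 1 in place of 4 than in the Hdac2 knockout, and 1 in place of 3 had a called interaction. List genes then numbered 3 higher in place of 5 and 5 lower in place of 12 in the double knockout, and 1 higher in place of 3 in the Hdac2 knockout. With only the groups compared in the fit, 2 list genes were lower in the Hdac2 knockout in place of 1. With dim probe sets left out, 1 member (Ythdf1) in place of 0 was higher in the Hdac1 knockout than in the Hdac2 knockout; fewer probe sets were then tested. No count of members or list genes moved by over 1.5 times when 1 array was left out. Centring each array on its median moved the median double-knockout change of all tested probe sets to -0.10 and quantile normalization to -0.04, against -0.01, and the share of called probe sets that were higher to 31.4% and 44.4%, against 48.3%. All sign changes were in values that were not called, and their causes were not tested. With centring, the double knockout against wild type was -0.073 for the brighter Wtap probe set and -0.053 for Alkbh5, Fto in the Hdac1 knockout against wild type was 0.0082, and the dimmer Wtap probe set in the double knockout against the Hdac2 knockout was -0.080. With quantile normalization, Wtap against wild type was -0.034, Fto in the Hdac1 knockout 0.0019, and Ythdf1 in the double knockout against the Hdac2 knockout 0.023. With the mean of its probe sets, Wtap against wild type was -0.010 in double-knockout and -0.022 in Hdac1-knockout oocytes, and 0.011 in the double knockout against the Hdac1 knockout. Over fits without 1 array, the Hdac1 knockout against wild type ran from -0.055 to 0.031 for Fto, from -0.0077 to 0.056 for Ythdf3 and from -0.043 to 0.10 for the dimmer Ythdc2 probe set, the Hdac2 knockout against wild type from -0.12 to 0.024 for Fto, and the double knockout against the Hdac2 knockout from -0.028 to 0.056 for the dimmer Wtap probe set and from -0.020 to 0.0085 for Ythdf1. Over all tested probe sets, 1.4-fold left 1772 higher and 1700 lower in the double knockout against wild type, in place of 3924 and 4198, and 242 and 212 in the Hdac2 knockout, in place of 606 and 581; centring gave 6907 lower in the double knockout against the Hdac1 knockout, in place of 4256. Leaving out 1 array moved a count by over 1.5 times in 3 such comparisons, for the arrays named in brackets. The ranges given cover all 8 fits of each comparison, also those that moved less. In the Hdac2 knockout against wild type they were 364 to 481 higher and 319 to 471 lower (Hdac2-knockout replicate 1 or 4 or wild-type replicate 3 or 4). In the Hdac1 knockout against the Hdac2 knockout they were 292 to 585 higher, in place of 597, and 386 to 657 lower, in place of 629 (Hdac1-knockout replicate 1, 2 or 3 or Hdac2-knockout replicate 1 or 4). In the Hdac1 knockout against wild type they were 2 to 10 higher, in place of 4, and 8 to 20 lower, in place of 11 (Hdac1-knockout replicate 1 or 4 or wild-type replicate 4). The replicate numbers did not pair the arrays: over 24 pairs of the same number the correlation of deviations ran from -0.15 to 0.09. With the replicate block, 4 members were lower in the double knockout against wild type and 2 had a called interaction, Ythdf3 being lost (adjusted p = 0.0571). In the main fit, without the block, 19.8% of all tested probe sets were lower and 23.3% had a called interaction. Dim signal limits the fold changes of Fto, the second Ythdc2 probe set, Meioc and Rbmx.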

Other observations

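Among the probe sets not used to represent their gene, 1 of the other 2 of Virma, a cofactor of the m6A writer complex, was higher in the double knockout than in wild type by 0.18 (limma, adjusted p = 0.043), whereas its brightest one differed by 0.06 and the remaining one by 0.16 (adjusted p = 0.253), neither of which passed. The 2 probe sets of Trmt112 rose by 0.18 each, from nearly the same wild-type means (10.99 and 10.98). Whether they read separate sequences was not tested. For the oocyte marker Dppa3, the dimmer probe set was higher in the double knockout by 0.14 (limma, adjusted p = 0.0167), and its brighter one did not pass.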
